A study of Homo sapiens with 2 samples.

Results

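The miR-376 family consists of short RNAs made from 4 hairpin genes at 14q32, the imprinted DLK1-DIO3 region that carries a large cluster of miRNA genes. Its members were all entries of the table whose name begins with miR-376, which gave 7 mature miRNAs of 2218 listed: the 3p arms of miR-376a, miR-376b and miR-376c, and the 5p arms of miR-376b, miR-376c and of each miR-376a copy (miR-376a-5p and miR-376a-2-5p). They were measured by small RNA sequencing in K562, a human erythroleukaemia cell line. One library came from K562 cells that had received a lentivirus for overexpression of QKI5, a nuclear form of Quaking (an RNA-binding protein), and the other from K562 cells with a GFP lentivirus, so each group had 1 library. Both groups thus received a lentivirus, while the sources used here do not give the vector's promoter, the time after transduction or the number of cultures. The question was how the abundance of these miRNAs differs when QKI5 is overexpressed.

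A miRNA hairpin is cut from a long primary transcript and then into a duplex of a 5p and a 3p arm, of which usually a single arm is kept in Argonaute, where it pairs with messenger RNAs mainly through its seed, bases 2 to 8. The 14q32 miRNAs are transcribed from the maternal chromosome and are known best from brain, placenta and embryonic tissue. The miR-376 hairpins are known for editing of adenosine to inosine inside the seeds in brain, which alters the targets. In erythroid cells, miR-376a has been described to act on CDK2, a cell cycle kinase, and AGO2, an Argonaute protein. The table holds 1 value for each mature miRNA and no base calls, so editing was not analysed here.

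The 7 mature sequences are shown because members differ by so few bases that the division of reads between them matters for the results. They are from RefSeq (GRCh38.p14), written 5′ to 3′ with the seed in capitals.
miR-376c-3p: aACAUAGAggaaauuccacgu
miR-376a-3p: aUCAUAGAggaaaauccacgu
miR-376b-3p: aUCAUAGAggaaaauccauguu
miR-376b-5p: cGUGGAUAuuccuucuauguuu
miR-376c-5p: gGUGGAUAuuccuucuauguu
miR-376a-5p: gUAGAUUCuccuucuaugagua
miR-376a-2-5p: gGUAGAUUuuccuucuauggu

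The 7 members carried 5 different seeds. miR-376a-3p and miR-376b-3p shared a seed, as did miR-376b-5p and miR-376c-5p, and no other listed miRNA with a sequence in RefSeq had any of the 5 seeds. Positions are counted from 1 at the 5′ end, with the base of the first-named miRNA first. miR-376a-3p and miR-376b-3p had the same first 18 bases and differed by C19U and by 1 more base at the 3′ end of miR-376b-3p. miR-376c-3p differed from miR-376a-3p by A2U, inside the seed, and by U14A. miR-376b-5p and miR-376c-5p differed by C1G and by 1 more base at the 3′ end of miR-376b-5p. The sources used here do not say how reads that fit more than 1 member were assigned.

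The hairpins stand in the order MIR376C, MIR376A2, MIR376B and MIR376A1 on the + strand of chromosome 14, within 1160 bases (GRCh38.p14, chr14:101039690-101040849), with MIR654 between MIR376A2 and MIR376B. No other gene of the GENCODE annotation overlapped any of the 4. They are shown with the mature arms in capitals, since the arms are what the libraries counted.
MIR376C: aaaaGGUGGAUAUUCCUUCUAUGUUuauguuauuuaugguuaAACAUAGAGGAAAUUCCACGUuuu
MIR376A2: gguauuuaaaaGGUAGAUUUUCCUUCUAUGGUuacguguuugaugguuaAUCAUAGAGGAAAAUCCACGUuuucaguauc
MIR376B: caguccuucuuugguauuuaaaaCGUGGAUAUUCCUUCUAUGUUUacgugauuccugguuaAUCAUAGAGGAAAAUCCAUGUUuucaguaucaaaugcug
MIR376A1: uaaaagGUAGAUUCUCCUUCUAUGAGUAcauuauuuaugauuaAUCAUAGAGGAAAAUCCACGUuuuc

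MIR376A1 and MIR376A2 give the same miR-376a-3p, so its reads cannot be assigned to 1 copy, while their 5p arms differ. QKI proteins bind a core word, ACUAAC or ACUAAU, with a shorter word, UAAC or UAAU, near it. On the transcribed strand none of the 4 hairpins held either core word, which 1.54% of 1560 human hairpins in RefSeq held. UAAU, which is also the end of ACUAAU, was in 3 of the 4 (all but MIR376C), against 15.3% of all hairpins, and UAAC was in none of the 4, against 12.6%. In each of these 3 hairpins the last 2 bases of UAAU were the first 2 bases of the 3p arm, and the same place in MIR376C read UAAA. The 3p arms of these 3 hairpins are near-identical, so the 3 matches are not independent and cannot show an enrichment. These are matches of letters within the hairpin only, and flanking sequence was not searched.

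The deposited values were reads per 1000000 reads of the library (RPM), in steps of 1 read, so read numbers could be recovered. The totals behind the scaling, inferred from these steps, were 6553945 reads for the QKI5 library and 23262340 for the GFP library. Listed miRNAs held 59.5% and 66.3% of them. Entries for blood and erythroid miRNAs such as miR-451a and miR-142 were detected in full (9 of 9 in each library, together 24214 RPM with QKI5 and 23182 RPM with GFP), with miR-142-3p as top entry. The summed levels of the other marker lists, in the same order, were 828 and 809 RPM for neuronal, 83.6 and 69.3 RPM for epithelial, 3.05 and 0.516 RPM for muscle and 1.22 and 0.860 RPM for placental and stem cell entries, and the liver entry miR-122-5p had 0 and 1 read. Full detection did not set the blood list apart. The epithelial list was also detected in full in both libraries (9 of 9). Of the 9 placental and stem cell entries, 1 had a read with QKI5 and 9 with GFP. These sums do not give the level of single entries such as miR-451a. QKI5 itself is not among the listed RNAs, so its overexpression was not checked here. Fewer cells carrying a miRNA and less of it per cell cannot be told apart in such bulk libraries. With 1 library per group there is no replicate check of any difference. Intervals given below are 95% intervals for counting error only, and without molecular identifiers each read need not be a separate molecule.

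The family was abundant in K562 cells. Its 7 members together made up 5.36% of the listed miRNA reads in the QKI5 library (exact binomial interval 5.34% to 5.38%) and 5.62% in the GFP library (5.61% to 5.63%). Their sum was 31900.2 RPM with QKI5 against 37238 RPM with GFP, a ratio of 0.857 (exact conditional binomial interval 0.853 to 0.861). That is a log2 ratio of -0.22, which became 0.06 when a linear trend on GC content was removed and stayed below 0 under the other scalings tried.

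hsa-miR-376c-3p was the leading member. It had 22639 RPM in the QKI5 library, where it was the fifth most abundant miRNA, against 27697 RPM in the GFP library, where it was the fourth. These levels rest on 148376 and 644308 reads. It was 1.22-fold lower with QKI5 (1.22 to 1.23), a log2 ratio of -0.29 that was below 0 under every scaling tried and nearest to 0 with the GC trend removed (-0.02).

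hsa-miR-376a-3p had 6782 RPM in the QKI5 library, against 5648 RPM with GFP, at ranks 12 and 13. It was the only member whose counting interval lay above 1, with a ratio of 1.20 (1.19 to 1.21). This direction depended on the scaling, and turned under a trimmed mean of M-values (log2 ratio -0.31, or -0.02 over the 400 most abundant miRNAs, against 0.26 as deposited).

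hsa-miR-376b-3p had 2286 RPM in the QKI5 library, against 3639 RPM with GFP, at ranks 27 and 17. At 1.59-fold lower (1.56 to 1.62) it had the lowest ratio of the family. hsa-miR-376b-5p, from the other arm of the same hairpin, had 123 RPM with QKI5, against 180.1 RPM with GFP, and was 1.47-fold lower (1.36 to 1.59). Both miR-376b arms were below 0 on the log2 scale under every scaling tried, down to -1.25 and -1.13 with the trimmed mean.

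The remaining 5p arms were scarce. hsa-miR-376a-5p, from MIR376A1, had 54.9 RPM with QKI5, against 52.8 RPM with GFP (360 and 1228 reads), a ratio of 1.04 (0.923 to 1.17). hsa-miR-376c-5p had 8.54 RPM with QKI5, against 10.9 RPM with GFP (56 and 253 reads), a ratio of 0.786 (0.577 to 1.05). hsa-miR-376a-2-5p, from MIR376A2, had 7.32 RPM with QKI5, against 9.41 RPM with GFP (48 and 219 reads), a ratio of 0.778 (0.557 to 1.07). For these 3 the interval included 1, so no difference was detectable at this depth.

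**Figure D1:**
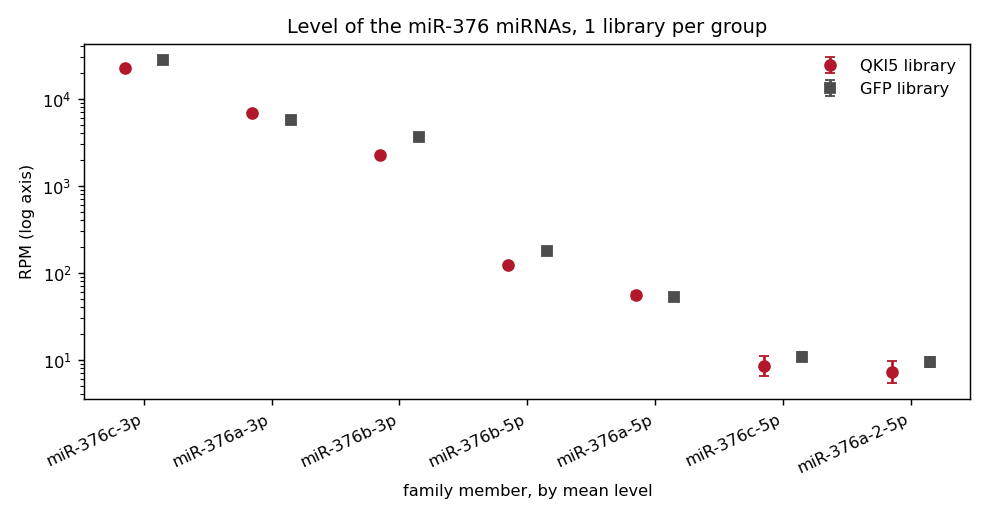
Level of each miR-376 miRNA in RPM (log axis) in the QKI5 library (circles) and the GFP library (squares), 1 library each, with 95% Poisson counting intervals. The 3p arms lie between 2286 and 27697 RPM, and all 5p arms lie at or below 180.1 RPM.

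The order of levels was the same in both libraries: miR-376c-3p, miR-376a-3p, miR-376b-3p, miR-376b-5p, miR-376a-5p, miR-376c-5p, miR-376a-2-5p. Adjacent members differed beyond counting error in both, except for miR-376c-5p over miR-376a-2-5p, at 1.17 reads per read with QKI5 (0.779 to 1.75) and 1.16 with GFP (0.960 to 1.39). The distances between the leading members were not alike. There were 3.34 reads of miR-376c-3p per miR-376a-3p read in the QKI5 library (3.30 to 3.37), against 4.90 in the GFP library (4.87 to 4.93).

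None of the 7 members reached a 2-fold difference in either direction on log2(RPM + 0.153), where the pseudocount of 0.153 RPM is 1 read of the QKI5 library. The count depended on the scaling. With a trimmed mean of M-values miR-376b-3p (-1.25) and miR-376b-5p (-1.13) passed 2-fold and all 7 members were below 0. All 7 belong to the 400 most abundant miRNAs, whose log2 ratios also fell with that mean. It put 22.8% of these 400 past 2-fold downward and 7.25% upward, with a median log2 ratio of -0.52 over the top 200. As deposited, 28.0% of the 400 differed at least 2-fold (20.8% upward and 7.25% downward). Of the 200 most abundant, with 4 members, 22.0% did as deposited. At 1.5-fold, 1 of 7 members passed (miR-376b-3p), against 51.5% of the 400. The median log2 ratio of the 7 was -0.34, with 2 members above 0 and 5 below, while the median over the 400 was 0.21. When the reads themselves were compared by an exact binomial test (Benjamini-Hochberg adjusted p under 0.05), 4 members were called, 1 higher and 3 lower, against 426 of 1995 detected miRNAs (21.4%, with 14.5% higher and 6.82% lower). Such a test sets 1 library against the other and does not compare the conditions. It also calls abundant miRNAs more readily, and the 1995 include many with few reads. Their share is thus not matched to the level of the members, and the 4 called do not show more differences in the family.

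**Figure D2:**
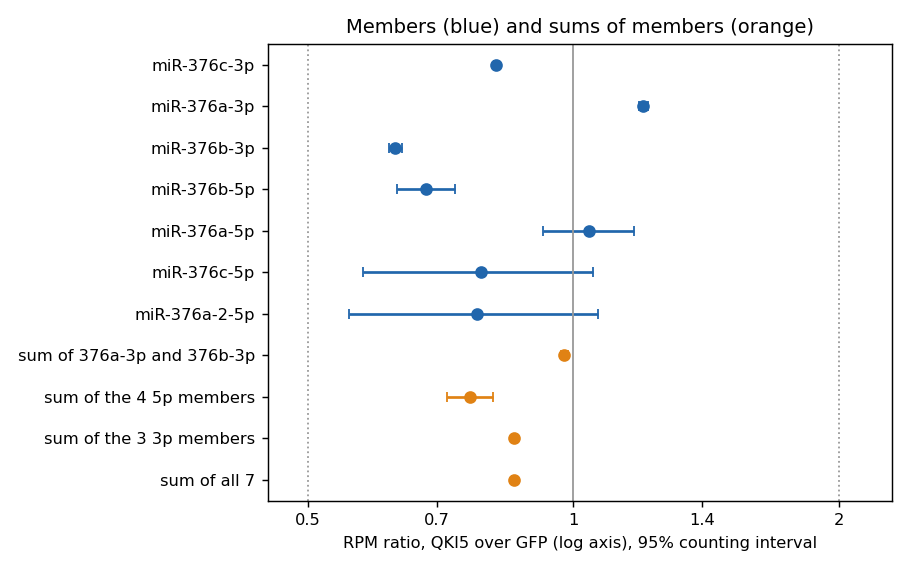
Ratio of RPM in the QKI5 library over the GFP library (log axis) for each member (blue) and for sums of members (orange), with 95% counting intervals and dotted lines at 2-fold. The ratios run from 0.628 for miR-376b-3p to 1.20 for miR-376a-3p, and the sum of these same-seed members is at 0.976.

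miR-376a-3p and miR-376b-3p, which share a seed, stood in a different ratio to each other in the 2 libraries. Read ratios inside a library do not depend on how that library was scaled. There were 2.97 reads of miR-376a-3p per miR-376b-3p read with QKI5, against 1.55 with GFP. miR-376a-3p thus made up 74.8% of the reads with this seed with QKI5 (74.4% to 75.1%) and 60.8% with GFP (60.6% to 61.0%). The ratio of these read ratios was 1.91 (Fisher's exact interval 1.87 to 1.95). The log2 ratio of miR-376a-3p lay 0.93 above that of miR-376b-3p as deposited, a distance that scaling a library by a single factor cannot alter. Of the settings that could alter it, quantile normalization gave 0.92, the thinned GFP reads 0.94, removal of the GC trend 0.76 and the larger pseudocounts 0.93, with miR-376c-3p between them in each.

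Summed over miR-376a-3p and miR-376b-3p, the level of this seed was close to equal as deposited. It came to 9068 RPM with QKI5, against 9287 RPM with GFP, a ratio of 0.976 (0.968 to 0.985). This rests on the deposited scaling: its log2 ratio of -0.03 was 0.12 with each column scaled by its own miRNA total and 0.28 without the GC trend, but -0.14 without the 10 most abundant miRNAs in the scaling, -0.15 with quantile normalization, -0.32 with a trimmed mean over the 400 and -0.61 with a trimmed mean over all listed miRNAs. These miRNAs have the same first 18 bases, so a shorter read cannot be assigned to either, and the part of read assignment in the split was not tested. The 5p arms of these hairpins stood at ratios of 0.680 for miR-376b-5p (0.630 to 0.734), 1.04 for miR-376a-5p (0.923 to 1.17) and 0.778 for miR-376a-2-5p (0.557 to 1.07), and the interval of miR-376a-2-5p covered that of miR-376b-5p.

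The 3p arm dominated in both libraries. Across the family, 99.39% of the reads were 3p in the QKI5 library (99.36% to 99.43%) and 99.32% in the GFP library (99.30% to 99.34%). miR-376b had the highest share of 5p reads, with 18.7 reads of 3p per 5p read with QKI5 and 20.2 with GFP, a ratio of 0.923 (0.854 to 0.999). miR-376a had 109 reads of 3p per read of either 5p arm with QKI5 and 90.8 with GFP, a ratio of 1.20 (1.07 to 1.34). The arm ratios of miR-376a and miR-376b rest on how reads were split between miR-376a-3p and miR-376b-3p. The part of read assignment in them was not tested. For miR-376c the numbers were 2650 with QKI5 and 2547 with GFP, and the interval of the ratio, 0.776 to 1.42, included 1.

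The 5p arms also tell the miR-376a copies apart. There were 7.50 reads of miR-376a-5p (MIR376A1) per read of miR-376a-2-5p (MIR376A2) with QKI5, against 5.61 with GFP, so MIR376A1 gave most of the 5p reads in each. The ratio of these values was 1.34 with an interval of 0.951 to 1.91, so a shift between the copies was not detectable at this depth. Between the 5p arms that share a seed, miR-376b-5p had 14.3 reads per miR-376c-5p read with QKI5 and 16.6 with GFP (ratio 0.866, 0.639 to 1.19). In the 3p arms of these hairpins the order was the opposite, with miR-376c-3p above miR-376b-3p. Over their aligned bases miR-376b-5p and miR-376c-5p differ only by C1G, and the part of read assignment in their ratio was not tested.

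**Figure D3:**
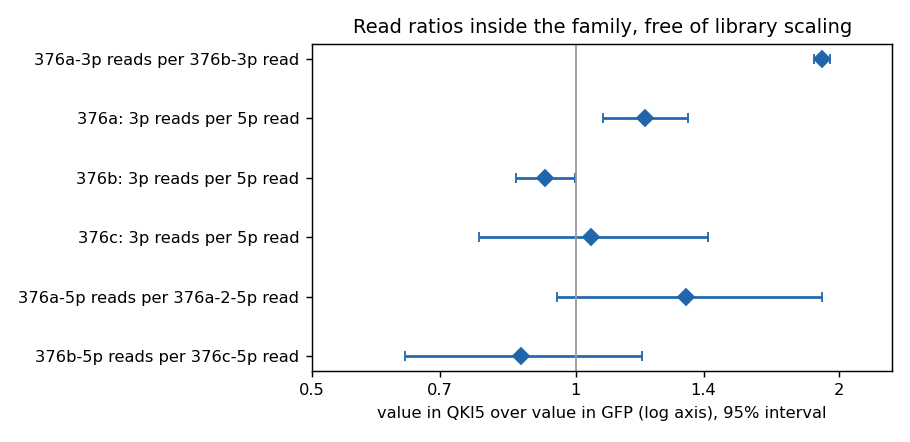
Ratios of reads between members inside a library, each given as the value in the QKI5 library over the value in the GFP library (log axis), with Fisher's exact 95% intervals. miR-376a-3p reads per miR-376b-3p read are highest at 1.91 (1.87 to 1.95), and the arm ratios lie between 0.923 and 1.20. miR-376a-5p per miR-376a-2-5p is at 1.34 (0.951 to 1.91), an interval that overlaps that of the highest ratio. miR-376b-5p per miR-376c-5p is at 0.866 (0.639 to 1.19).

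Within the family's reads, the share of miR-376a-3p was 21.3% in the QKI5 library (21.1% to 21.4%) and 15.2% in the GFP library (15.1% to 15.2%). The share of miR-376c-3p was 71.0% with QKI5 (70.8% to 71.2%) and 74.4% with GFP (74.3% to 74.5%). The share of miR-376b-3p was 7.17% with QKI5 (7.06% to 7.28%) and 9.77% with GFP (9.71% to 9.83%). The 4 5p members together held under 1% in each library.

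The family lies inside the cluster that runs from miR-379 to miR-656, and it supplied most of that cluster's reads. It made up 63.8% of the reads of the 74 listed miRNAs of the cluster with QKI5 (63.6% to 63.9%) and 62.7% with GFP (62.6% to 62.8%), and miR-376c-3p alone held 45.3% with QKI5 and 46.7% with GFP. The other 67 miRNAs had a summed ratio of 0.819 (0.814 to 0.824), against 0.857 for the family. Of the 47 of them in the top 400 by level, 4 were at least 2-fold higher and 6 lower with QKI5 (8.51% and 12.8%), against 20.8% and 7.25% of all 400. The split of these 4 and 6 moved with the scaling, as did that of all 400. With each column scaled by its miRNA total, 6 of the 47 were higher and 5 lower, against 23.8% and 5.50% of all 400. With quantile normalization 3 were higher and 11 lower, against 13.2% and 11.2%. A trimmed mean gave 1 higher and 20 lower, against 7.25% and 22.8%, and over the 400 alone 2 higher and 13 lower, against 12.2% and 12.5%. With the GC trend removed 4 were higher and 4 lower, against 17.6% and 5.59% of the 358 miRNAs with a sequence. The median log2 ratio of the 47 as deposited was -0.29, with 15 above 0 and 32 below, while the median over all 400 was 0.21. The median of the 47 was -0.13 with the miRNA total, -0.09 with the GC trend removed and -0.86 with the trimmed mean. That of the 200 most abundant miRNAs also moved, from 0.06 as deposited to 0.21, 0.11 and -0.52 in the same order.

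miR-381-3p was the most abundant of the other cluster miRNAs, at 4099 RPM with QKI5, against 7409 RPM with GFP. The highest log2 ratios among the 47 were those of miR-539-5p (1.99), miR-134-5p (1.37) and miR-379-5p (1.25), and the lowest those of miR-369-3p (-2.71), miR-154-3p (-1.66) and miR-758-3p (-1.22). All 7 members of the miR-376 family lay between these. The log2 ratios of the 47 thus ran from -2.71 to 1.99, and those of the 7 from -0.67 to 0.26. A range tends to widen with the number of entries, so 47 against 7 is not a matched comparison of spread.

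Some arms of the hairpins next to the family lay outside its range. MIR654 lies 70 bases after MIR376A2 and 136 before MIR376B. miR-654-3p had 790.2 RPM with QKI5, against 1196 RPM with GFP, a ratio of 0.661 (0.641 to 0.681), whereas its 5p arm had 48.1 RPM with QKI5, against 22.5 RPM with GFP, a ratio of 2.14 (1.85 to 2.46). Upstream, miR-495-3p had 214 RPM with QKI5, against 497 RPM with GFP and was 2.32-fold lower (2.20 to 2.46), and miR-495-5p was 1.83-fold lower (1.61 to 2.09). Downstream, miR-300 had 2 reads with QKI5 and 17 with GFP, a ratio of 0.418 with an interval of 0.0468 to 1.76.

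**Figure D4:**
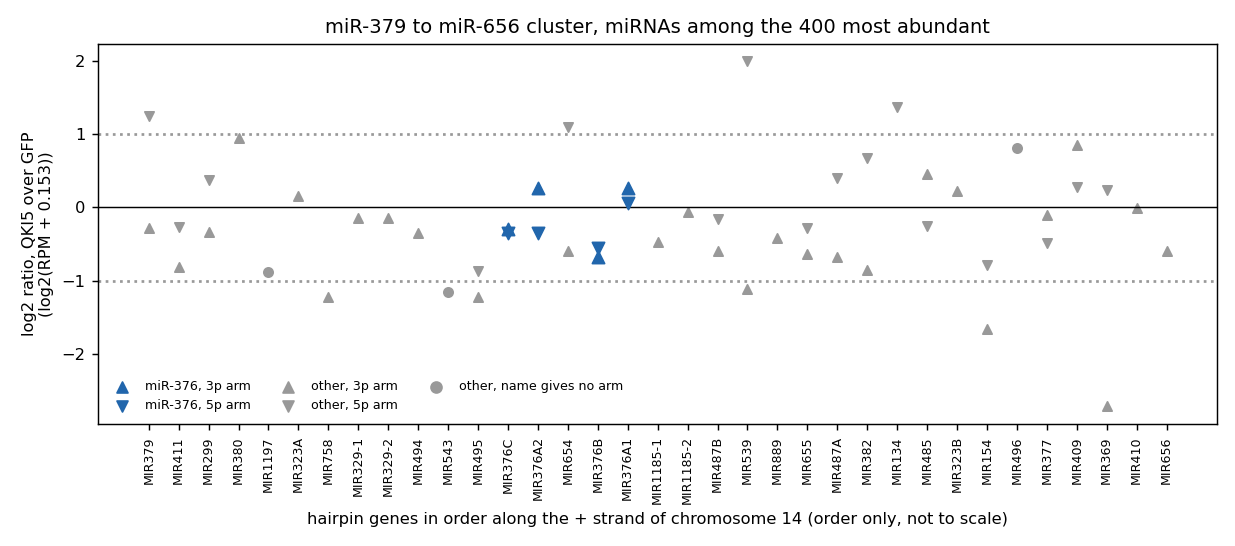
Log2 ratio of QKI5 over GFP for cluster miRNAs among the 400 most abundant, placed by their hairpin gene in order along chromosome 14, with 3p arms as upward and 5p arms as downward triangles and the family in blue. miR-376a-3p is drawn at both of its genes, as are other miRNAs with more than 1 gene. The family lies between -0.67 and 0.26, inside the range of the other miRNAs.

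In base composition the members were poor in G and C, at 31.8% to 38.1% of the mature sequence, against a median of 47.6% over the 358 of the 400 most abundant miRNAs that had a sequence. Over these 358 the log2 ratio was higher by 0.27 for each 10 percentage points of GC, a description across miRNAs that share the same pair of libraries. With that trend removed, miR-376c-3p was at a log2 ratio of -0.02, miR-376b-3p at -0.23 and miR-376a-3p at 0.53.

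**Figure D5:**
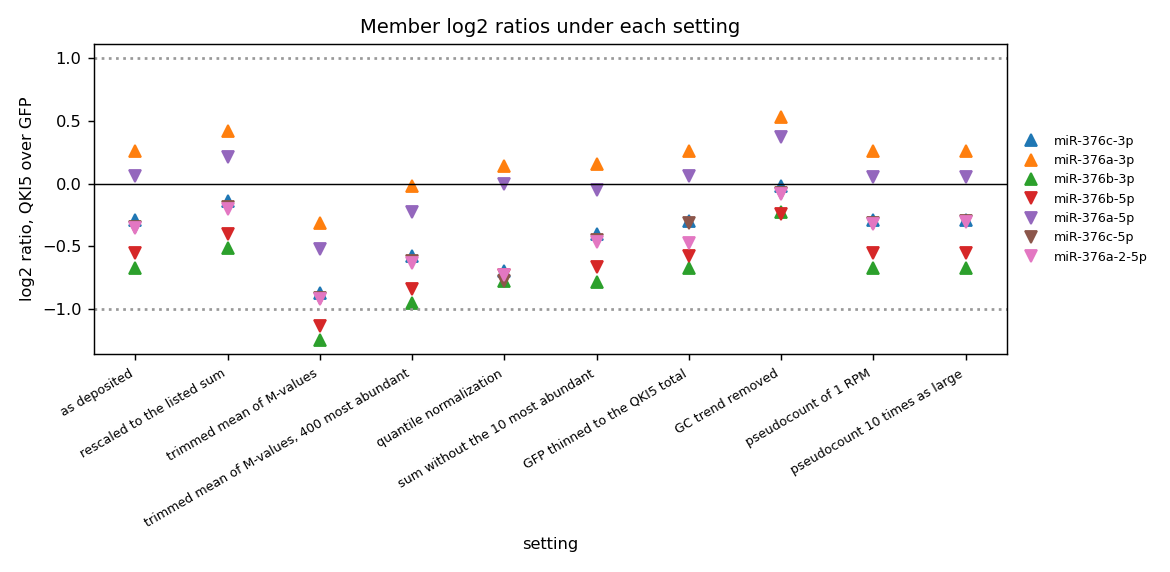
Log2 ratio of QKI5 over GFP for each member under each of 10 settings of scaling, depth, base composition and pseudocount, with 3p arms as upward and 5p arms as downward triangles and dotted lines at 2-fold. The points lie lowest with the trimmed mean and highest with the GC trend removed, and miR-376a-3p stays above miR-376c-3p and miR-376c-3p above miR-376b-3p.

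By level in both libraries, the miRNAs nearest to miR-376c-3p among the 400 most abundant were miR-18a-5p, miR-126-3p and miR-27a-3p, at distances of 0.37, 1.22 and 1.41 on the log2 scale. Those nearest to miR-376a-3p were miR-17-5p, miR-21-5p and miR-20a-5p, at 0.35, 0.39 and 0.65. With 2 libraries this distance is little more than a match of abundance.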

How the data were processed

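The members, lists and comparisons were chosen with earlier results of these data known. Small RNA was isolated with the mirVana kit, made into libraries with an Ion Total RNA-Seq kit and read on an Ion Proton, per the labels' protocols. Bowtie 0.12.3 and hg19 are named in the submitters' processing notes. The sources used here do not give the miRNA annotation, the mismatches allowed, the handling of multiple matches or whether strand was used. The file's name calls the values RPKM, but the deposited values are RPM: all values above 0 were whole multiples of 1 step per library (within 0.1 of a read), 0.153 RPM for QKI5 and 0.0430 RPM for GFP, for 100.0% of the values. Reads and library totals were recovered from these steps. The fixed design allowed for RPM or RPKM.

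Ratios are QKI5 over GFP, with exact conditional binomial intervals. Log2 ratios used a pseudocount of 0.153 RPM, which understates the ratios of scarce miRNAs. How reads of near-identical members were assigned could move their split. Shares have Clopper-Pearson intervals. All 7 members are named. From the cluster, the most abundant miRNA, the 3 highest and the 3 lowest log2 ratios and the neighbouring hairpins are named. Of 2218 listed miRNAs, 1946 matched a mature sequence in RefSeq (GRCh38.p14) by name, all 7 members among them. Positions are from RefSeq, not from the authors' hg19 mapping, and gene overlaps from GENCODE release 29. Alternatives covered scaling, pseudocount, depth, level, fold threshold and GC content. The 2-fold rule and the intervals of the ratios were tested on simulated reads, and the other steps were not. The work was run with Python 3.11.15, numpy 2.4.6, scipy 1.17.1, pandas 2.3.3 and matplotlib 3.10.9.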

Additional observations from a re-analysis of the deposited data

How the results depend on the processing

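The log2 ratio of the family sum, -0.22 as deposited, was -0.067 with each column scaled by its miRNA total, -0.80 with a trimmed mean of M-values, -0.51 with that mean over the 400 most abundant miRNAs (chosen after seeing the data), -0.54 with quantile normalization, -0.33 when scaled to the sum without the 10 most abundant, 0.060 with the GC trend removed and -0.043 without miR-376c-3p. The median over members, -0.34, was -0.91 with the trimmed mean, -0.72 with quantile normalization, -0.19 with the miRNA total and -0.07 with the GC trend removed. Only -0.91 lay beyond the counting interval of miR-376c-5p, the median member as deposited. That interval is wide (ratio 0.577 to 1.05), so lying inside it does not show that the median was stable. The count of members at least 2-fold apart, 0 as deposited, was 2 with the trimmed mean (miR-376b-3p and miR-376b-5p, both lower). With that mean, 22.8% of the 400 were at least 2-fold lower. At a threshold of 1.5-fold instead, 1 member passed as deposited, against 51.5% of the 400. The exact binomial test, which has no fold rule and was also chosen after seeing the data, called 4 members. It called 21.4% of all detected miRNAs, a share not matched to the level of the members. The count of other cluster miRNAs at least 2-fold apart was 10 of 47 as deposited, against 28.0% of the 400. With the trimmed mean it was 21 of 47 (1 higher and 20 lower), against 7.25% higher and 22.8% lower of the 400. At 1.5-fold 26 of 47 passed, against 51.5% of the 400. Over every cluster miRNA with a read it was 16 of 67, for which no share over all detected miRNAs is given here. Relative to deposited values, the median log2 ratio of the 200 most abundant miRNAs shifted by 0.16 with the miRNA total, by -0.58 with the trimmed mean, by -0.28 with the mean over the 400 and by -0.11 without the 10 most abundant. miR-376a-5p was at 0.00 with quantile normalization and below 0 with both trimmed means and without the 10 most abundant (-0.52, -0.22 and -0.05). The cause of these changes was not tested. No paired analysis was possible because each group has 1 library. The 5p arms with 48 to 56 QKI5 reads limit the arm and copy comparisons.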
